A study of Bos taurus with 6 samples.

Results

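Acyl-CoA synthetases use ATP to join a fatty acid to coenzyme A, which is the step that commits the fatty acid to oxidation, storage or membrane synthesis. The 10 genes described here were taken by symbol from a list drawn up with earlier results of these libraries known, ACSBG2 among them. They are the long-chain synthetases ACSL1, ACSL3, ACSL4, ACSL5 and ACSL6, the bubblegum-family synthetases ACSBG1 and ACSBG2, the acetyl-CoA synthetases ACSS1 and ACSS2, and the medium-chain synthetase ACSF2. All 10 were among the 23015 rows of the count files, 8 of them passed the filter on low counts that left 15039 rows for testing, and ACSL6 and ACSBG1 did not.

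The isoforms differ in place and in preferred substrate. ACSL1 is the main long-chain synthetase of muscle, heart and adipocytes and supplies acyl-CoA for mitochondrial oxidation in muscle and for triglyceride in fat, ACSL3 works on the endoplasmic reticulum and on growing lipid droplets, and ACSL4 prefers arachidonic acid and other polyunsaturated fatty acids. Acetate made by rumen fermentation is a major fuel and the main carbon source for fatty acid synthesis in cattle. It is activated in mitochondria by ACSS1 and in the cytosol and nucleus by ACSS2.

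The study compared steers with a high and a low number of fine marbling particles (NFMP), which are small flecks of intramuscular fat counted by image analysis of the ribeye. By the study's carcass data, the sequenced high-NFMP steers also had a higher marbling score and a larger rib eye area. Differences with NFMP cannot be told apart from differences with these traits. One RNA sequencing library was made from the longissimus thoracis (LT) muscle of each of 6 Hanwoo (Korean native cattle) steers fed commercial feed, without any treatment. The high-NFMP group held steers 3-8, 10-8 and 10-9, aged 32.5, 33.8 and 34.5 months, and the low-NFMP group held steers 3-1, 3-3 and 10-16, aged 37.8, 33.7 and 35.4 months. The RNA was of whole muscle, so fewer cells of a type and less RNA per cell cannot be told apart.

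The counts assigned to genes summed to between 16283873 and 17192750 per library. Muscle fibre genes were abundant in all libraries, with summed normalized counts of the 6 fast fibre markers between 236186 and 351570 and of the 6 slow fibre markers between 78410 and 135218. Steer 3-8 stood apart in the 7 adipocyte markers, with a sum of 8821 normalized counts against 2612 to 3797 in the other 5 steers. FABP4, the fatty acid binding protein of adipocytes, gave 4945 of them in steer 3-8 and between 1019 and 2044 in the other steers. Normalized counts are counts scaled by library size and by trimmed mean of M-values (TMM) factors to the mean library. They are not divided by transcript length, because in this 3′ mRNA method the cDNA starts at the poly(A) tail and a longer transcript is not meant to give more reads.

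ACSL1 was the dominant acyl-CoA synthetase gene in every steer. It gave 6639, 6824 and 4730 reads in high-NFMP steers 3-8, 10-8 and 10-9, against 8367, 6262 and 8320 in low-NFMP steers 3-1, 3-3 and 10-16. Its share of the counts of the 10 genes was 49.0% ± 5.82 (SD, n = 6), with the lowest value, 39.0%, in steer 10-9 (95% exact binomial interval 38.1% to 39.8%) and the highest, 54.3%, in steer 10-16 (53.5% to 55.1%). These intervals cover counting error only, and the spread between steers was far wider. Of all 23015 rows, 0.99% had more counts than ACSL1.

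ACSL4 came second, with 3438, 3878 and 4032 counts in the high-NFMP steers and 4101, 4023 and 4017 in the low-NFMP steers, and a share of 28.4% ± 2.76 (SD, n = 6). ACSL3 followed, with 2347, 2251 and 2736 counts against 2415, 2897 and 2365, and a share of 18.2% ± 2.97 (SD, n = 6). Together ACSL1, ACSL4 and ACSL3 held between 94.4% and 96.3% of the counts of the 10 genes. The order of these genes, on the scale of counts, was the same in all 6 libraries, with 1.72 times as many counts on ACSL1 as on ACSL4 and 1.57 times as many on ACSL4 as on ACSL3 (geometric means over steers).

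**Figure D1:**
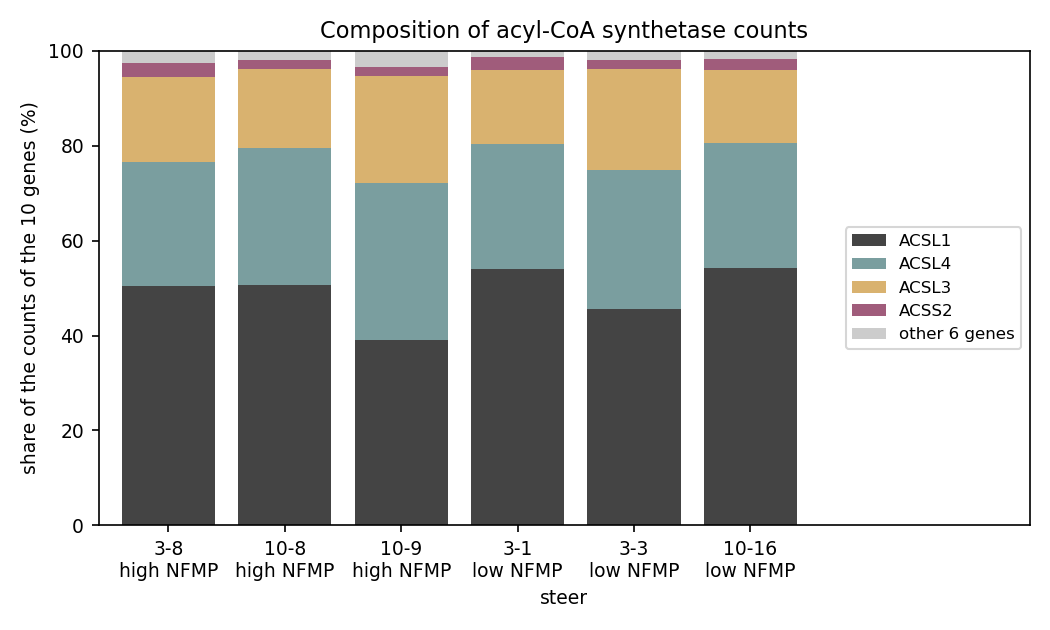
Stacked bars give the share (%) of the summed counts of the 10 acyl-CoA synthetase genes held by ACSL1, ACSL4, ACSL3, ACSS2 and the other 6 genes in each steer. The ACSL1 bar is lowest in steer 10-9 (39.0%) and highest in steer 10-16 (54.3%), and the top segments for ACSS2 and the other 6 genes are thin in every steer.

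A step of 8.10 times separated ACSL3 from ACSS2, the next gene. ACSS2 held 2.27% ± 0.52 of the counts of the 10 genes (SD, n = 6), ACSF2 0.89% ± 0.18, ACSS1 0.76% ± 0.38 and ACSL5 0.39% ± 0.17. ACSS2 was above ACSF2 in 6 of 6 steers. ACSF2 and ACSS1 were neighbours that did not differ beyond their spread, since their log2 ratio was 0.34 ± 0.44 (SD, n = 6) and ACSF2 was the higher gene in 5 of 6 steers. ACSS1 was above ACSL5 in 5 of 6 steers, with a log2 ratio of 0.91 ± 0.63. ACSBG2, ACSL6 and ACSBG1 were rare, with 72, 29 and 12 counts in all 6 libraries together.

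**Figure D2:**
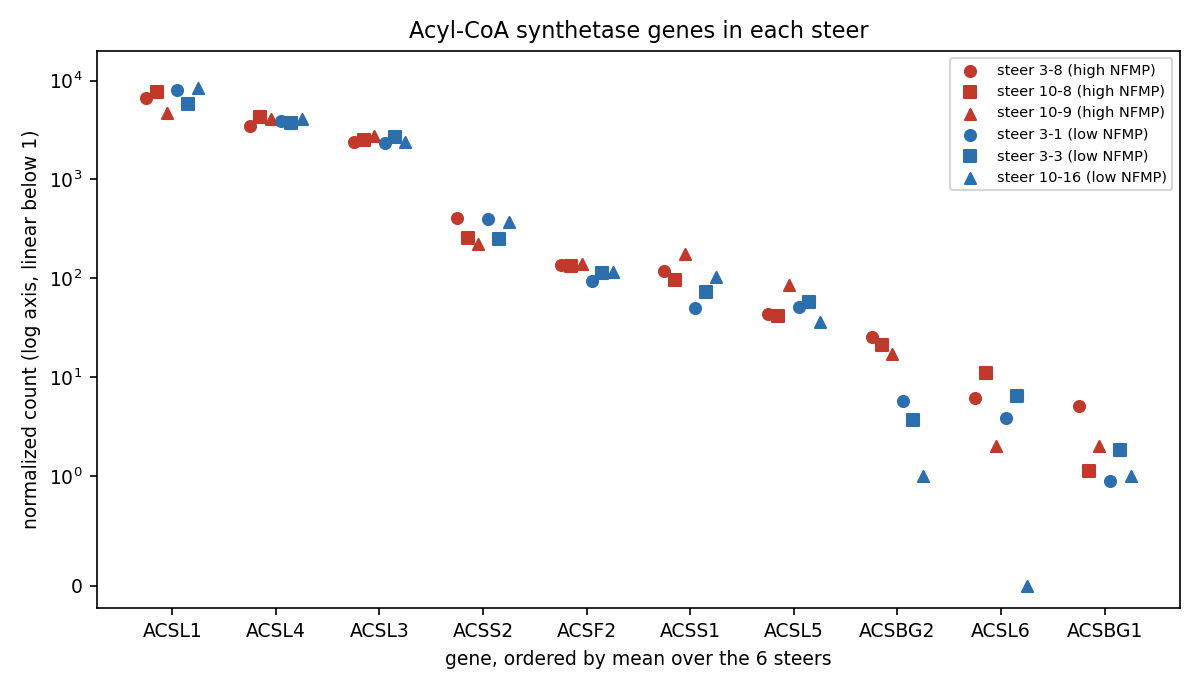
Points give the normalized count (log axis, linear below 1) of each of the 10 genes in each steer, red for high NFMP and blue for low NFMP, with genes ordered by their mean. ACSBG2 and ACSF2 are the genes whose 3 high-NFMP points lie above all 3 low-NFMP points, and ACSL6 has no count in steer 10-16.

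The groups were compared by edgeR's quasi-likelihood test, with the threshold of the study's methods, an unadjusted p below 0.05 and a fold change above 2. One member, ACSBG2, passed it as higher with high NFMP, and none as lower. Among all tested rows 3.9% passed, 2.53% as higher and 1.36% as lower, so the share of members that passed, 1 of 8, rests on a single gene. ACSBG2 reached the filter's minimum of 10 counts in the 3 high-NFMP libraries and in no low-NFMP library, so it entered the test through the group where it was high, and its count among the members is a description. An unadjusted p below 0.05 by edgeR was reached by 2 of the 8 members, against 11.5% of all tested rows. After Benjamini-Hochberg adjustment over all 15039 rows, 0 of the 8 members had an adjusted p below 0.05 by edgeR, against 0.685% of all rows. DESeq2 gave 1 member (ACSBG2, adjusted p = 0.0461) and limma after quantile normalization gave 0. The median log2 fold change was 0.14 over the 8 members and 0.02 over all tested rows, and by sign alone 6 of the 8 were above 0 and 2 below. The normalized counts of the groups did not overlap for 2 of the 8 members, ACSBG2 and ACSF2, both with high NFMP above low NFMP, and by library totals alone for 1, ACSBG2. With TMM factors the same held for 17.1% of all tested rows, 7.97% with high above low and 9.16% with high below low. The smallest p of an exact permutation test at this group size is 0.1, so each test rests on the spread that edgeR shares across genes.

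**Figure D3:**
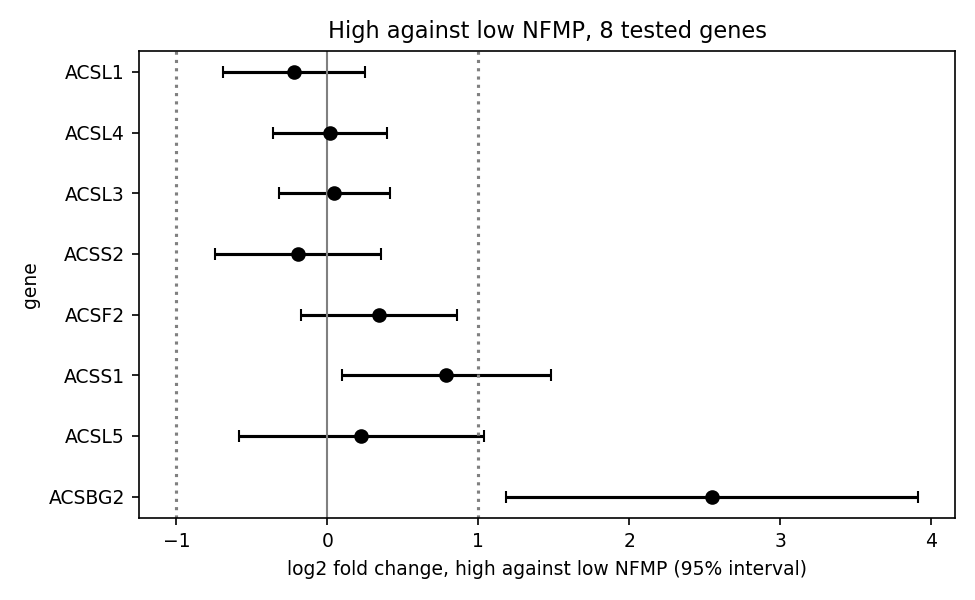
Points give the log2 fold change of high against low NFMP for the 8 tested genes, and bars the 95% interval from edgeR's quasi-likelihood fit. Dotted lines mark a fold change of 2. The interval of ACSBG2, 1.19 to 3.91, lies above the upper line, that of ACSS1 lies above 0 and crosses the line, and the other 6 include 0.

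Of the abundant long-chain genes, ACSL1 averaged 6352 ± 1457 normalized counts with high NFMP and 7400 ± 1404 with low NFMP (SD, n = 3 each). The log2 fold change was -0.22 (95% interval -0.69 to 0.25, adjusted p = 0.739 by edgeR), so the interval did not reach a fold change of 2 in either direction. The groups overlapped. The lowest normalized count, 4744, was that of high-NFMP steer 10-9, the next, 5795, was that of low-NFMP steer 3-3, and the highest were 8006 and 8400 in low-NFMP steers 3-1 and 10-16.

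ACSL4 was the steadiest of the 10 genes in the low-NFMP group, with 3901 ± 167.6 normalized counts (SD, n = 3) there and 3946 ± 421 in the high-NFMP group. Its log2 fold change was 0.02 (95% interval -0.36 to 0.39, adjusted p = 0.981 by edgeR). ACSL3 had 2541 ± 186.0 against 2460 ± 195.2 normalized counts (SD, n = 3 each) and a log2 fold change of 0.05 (95% interval -0.32 to 0.42, adjusted p = 0.939 by edgeR). These differences were smaller than the spread between steers of a group, and their signs turned when library totals replaced the TMM factors, to -0.05 for ACSL4 and -0.02 for ACSL3. Relative to ACSL3 in the same library, ACSL1 was 1.73 times as high in steer 10-9, between 2.16 and 3.03 times in steers 3-3, 3-8 and 10-8, and 3.46 and 3.52 times in steers 3-1 and 10-16. The variation of ACSL1 between steers therefore crossed the groups, at a coefficient of variation of 22.9% in the high-NFMP group and 19.0% in the low-NFMP group, against 7.32% and 7.94% for ACSL3.

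By likeness of pattern, SMOC2 (a secreted matrix-associated protein) and ABCF2 were among the 3 genes closest to ACSL1 over the 6 steers. The Pearson correlations of their log2 CPM values with those of ACSL1 were 0.993 and 0.986. The comparison covered 8728 genes with a mean of at least 100 normalized counts, of which 109 had a correlation above 0.9, and the libraries share their scaling. Neither SMOC2 nor ABCF2 passed the threshold between the groups by edgeR, with log2 fold changes of -0.27 and -0.09.

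ACSL5, which is best known from intestine and liver, gave 43, 37 and 85 reads in high-NFMP steers 3-8, 10-8 and 10-9, against 54, 62 and 36 in low-NFMP steers 3-1, 3-3 and 10-16. The value of steer 10-9 was the highest and those of the other high-NFMP steers lay among the low-NFMP steers. The log2 fold change was 0.23 (95% interval -0.58 to 1.03, adjusted p = 0.852 by edgeR) and turned to -0.18 without steer 10-9.

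ACSBG2, a bubblegum-family synthetase best known from testis, was the member that differed most between the groups, from few reads. It gave 25, 19 and 17 reads in high-NFMP steers 3-8, 10-8 and 10-9, against 6, 4 and 1 in low-NFMP steers 3-1, 3-3 and 10-16. The lowest high-NFMP steer had 17 counts and the highest low-NFMP steer 6, so the groups did not overlap. In all, 61 reads stood against 11, which is 1.23 CPM (counts scaled to library size, 95% exact Poisson interval 0.940 to 1.58) against 0.215 CPM (0.107 to 0.385), where the intervals cover counting error only. The normalized counts were 21.2 ± 4.14 (SD, n = 3) and 3.48 ± 2.37 (SD, n = 3), and the log2 fold change was 2.55 (standard error 0.64, 95% interval 1.19 to 3.91), or 5.85-fold. The unadjusted p was 0.00122 and the adjusted p 0.098 by edgeR.

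With a steer left out, the ACSBG2 log2 fold change lay between 2.17 and 3.08, which is given as a description, since the gene entered the test through its high group and was not tested when at least 10 counts were required in every library. It was 2.40 without steer 3-8, the steer with the most adipocyte marker counts, and the part of adipocytes in this difference was not tested. Over the alternatives that could test the gene the adjusted p ranged from 0.0461 to 0.377. ACSBG2 was named by the study from these same libraries, so its place among the members is not independent of this difference. All 10 members matched RefSeq genes of the assembly ARS-UCD2.0 by symbol, and no other gene there overlapped ACSBG2. The reads were mapped to the older assembly UMD3.1 per the study's methods, and overlaps in that annotation were not examined here.

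ACSBG1, the bubblegum-family synthetase known from brain and adrenal gland, gave 5, 1 and 2 reads with high NFMP and 1, 2 and 1 with low NFMP. ACSL6, known from brain, gave 6, 10 and 2 reads with high NFMP and 4, 7 and 0 with low NFMP. A count of 0 in steer 10-16 allows up to 0.174 CPM, counting error only. Summed over the steers of a group, ACSBG1 was at 0.161 CPM with high NFMP (95% exact Poisson interval 0.0696 to 0.318) and 0.0782 CPM with low NFMP (0.0213 to 0.200). ACSL6 was at 0.363 CPM (0.215 to 0.573) and 0.215 CPM (0.107 to 0.385). The intervals of the groups overlapped for both genes, and a difference was not detectable at this depth. In a fit without the filter their log2 fold changes were 1.00 (95% interval -1.68 to 3.68) for ACSBG1 and 0.83 (-1.19 to 2.86) for ACSL6. The markers of Schwann cells, a glial cell of nerve, were summed between 1209 and 1715 normalized counts in the high-NFMP steers and between 1081 and 1427 in the low-NFMP steers. Their part in the counts of ACSBG1 and ACSL6 was not tested.

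The acetyl-CoA synthetases ACSS1 and ACSS2 are described together. ACSS1, the mitochondrial enzyme, gave 118, 86 and 174 reads in high-NFMP steers 3-8, 10-8 and 10-9, against 52, 78 and 103 in low-NFMP steers 3-1, 3-3 and 10-16. The groups overlapped by 1 pair of steers, since high-NFMP steer 10-8 lay at 95.6 normalized counts and low-NFMP steer 10-16 at 104.0. The means were 129.9 ± 40.5 and 75.3 ± 27.2 normalized counts (SD, n = 3 each), a log2 fold change of 0.79 (standard error 0.32, 95% interval 0.09 to 1.48), or 1.73-fold. The unadjusted p of 0.0285 by edgeR was below 0.05, as for 11.5% of all tested rows, but the fold change was under 2 and the adjusted p was 0.367.

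The call on ACSS1 depended on single steers. Its fold change passed 2 without steer 10-8 (log2 fold change 1.00) and without steer 10-16 (1.13), and its unadjusted p by edgeR rose to 0.148 without steer 10-9, 0.124 without steer 3-1 and 0.0719 without steer 3-3. With age as a term the log2 fold change was 0.69 with an unadjusted p of 0.122 by edgeR, and with a term for the leading number of the steer label (3 or 10) it was 0.67 with an unadjusted p of 0.0553.

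ACSS2, the enzyme of cytosol and nucleus, gave 400, 231 and 223 reads with high NFMP and 416, 267 and 367 with low NFMP. High values, in steers 3-8, 3-1 and 10-16, and low values, in steers 10-8, 10-9 and 3-3, occurred in both groups. The log2 fold change was -0.20 (95% interval -0.75 to 0.35, adjusted p = 0.808 by edgeR), with 295.2 ± 96.8 against 338.6 ± 80.4 normalized counts (SD, n = 3 each). With a steer left out it lay between -0.50, without steer 3-8, and -0.020, without steer 10-9. It was -0.38 without steer 3-3, -0.084 without steer 10-8, -0.067 without steer 3-1 and -0.10 without steer 10-16. Within a library, where no scaling enters, ACSS1 had 0.295, 0.372 and 0.780 times the counts of ACSS2 in the high-NFMP steers 3-8, 10-8 and 10-9. The ratio was 0.125, 0.292 and 0.281 in the low-NFMP steers 3-1, 3-3 and 10-16. Each high-NFMP steer thus lay above each low-NFMP steer, but steers 3-8 and 3-3 were nearly equal. No background share was computed for ratios, and among single tested rows the groups did not overlap for 17.1%. The ratios of ACSL1 to ACSL3, ACSL1 to ACSL4 and ACSL3 to ACSL4 overlapped between the groups.

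**Figure D4:**
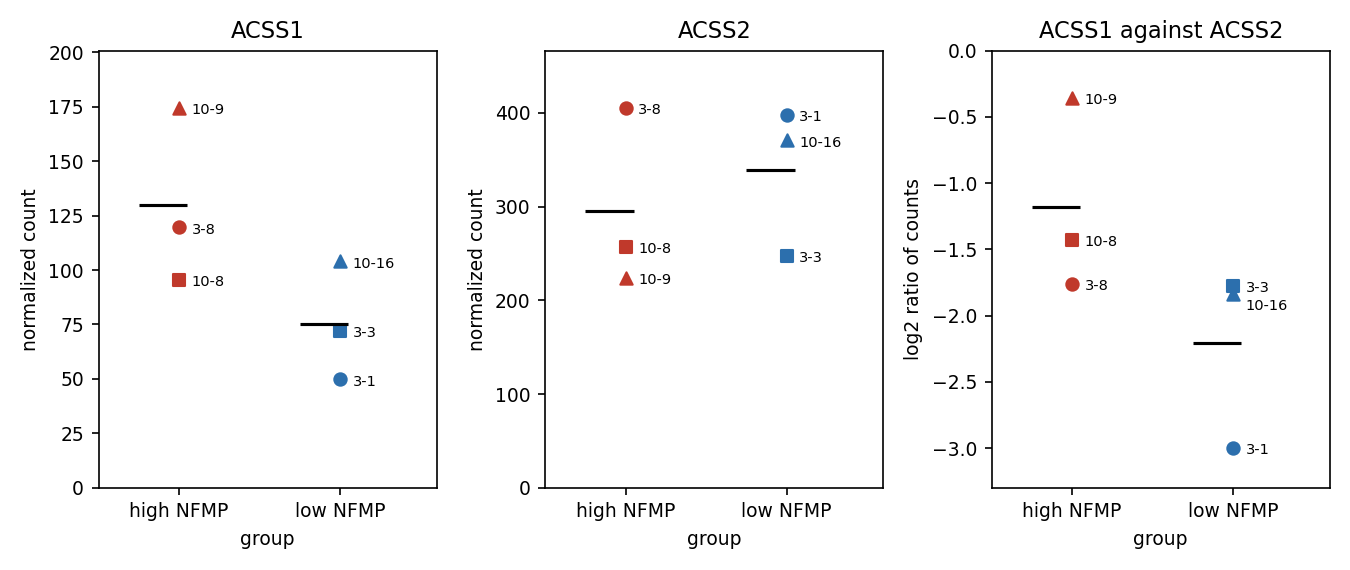
The panels give normalized counts of ACSS1 and of ACSS2 and the log2 ratio of their counts in each steer, grouped by NFMP, with black lines at the group means. For ACSS1 the high-NFMP mean (129.9) is above the low-NFMP mean (75.3), with steers 10-8 and 10-16 overlapping, for ACSS2 it is below (295.2 against 338.6), and in the log2 ratio steer 10-9 is the highest (ratio 0.780) and steer 3-1 the lowest (0.125).

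The mean log2 ratio of ACSS1 to ACSS2 was -1.18 ± 0.73 with high NFMP and -2.20 ± 0.69 with low NFMP (SD, n = 3 each), a difference of 1.02. It was given no test. Without steer 10-9 the difference was 0.61 and without steer 3-1 it was 0.62.

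ACSF2, a mitochondrial medium-chain synthetase, gave 134, 120 and 138 reads with high NFMP and 98, 122 and 114 with low NFMP. After normalization the high-NFMP steers lay between 133.4 and 138.4 and the low-NFMP steers between 93.8 and 115.1, so the groups did not overlap. By library totals alone, a check added after the values were seen, they did overlap, since high-NFMP steer 10-8 lay at 7.26 CPM and low-NFMP steer 3-3 at 7.27 CPM. The log2 fold change was small, 0.34 (95% interval -0.17 to 0.86, adjusted p = 0.632 by edgeR). The gene CHAD, which overlaps ACSF2 in ARS-UCD2.0, was counted between 5 and 19 times per library.

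Around the 10 members, 99 further genes that make, bind, split, use or regulate acyl-CoA were taken as 10 lists. They gave 100 rows, of which 87 were tested and 4 passed the threshold, all of them higher in the high-NFMP group. This was 4.6% of the tested rows, near the 3.9% of all tested rows. The 4 genes were PPARD, FASN, AACS and ACSM2B, of which PPARD had an adjusted p below 0.05 by edgeR. The study had named PPARD, AACS and ACSM2B from these same libraries. DESeq2 and limma passed these 4 and no other pathway gene. With a steer left out, other pathway genes passed too, and they are named here after their values were seen. ACAT1 passed as lower without steer 3-8 (log2 fold change -1.02) and ACBD7 without steer 10-9 (-2.57), while ACOT11 and SLC27A6 passed as higher without steer 3-3, GPAT3 without steer 10-16 and PPARGC1A without steer 3-8 or 3-1. In those fits ACBD7 had 2 and 2 reads with high NFMP against 17, 20 and 5, and ACOT11 had 13, 16 and 13 against 1 and 3. Each reached 10 reads only in the group where it was high, so these calls are a description. The steers left out held 16 reads of ACBD7 and 17 of ACOT11.

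**Figure D5:**
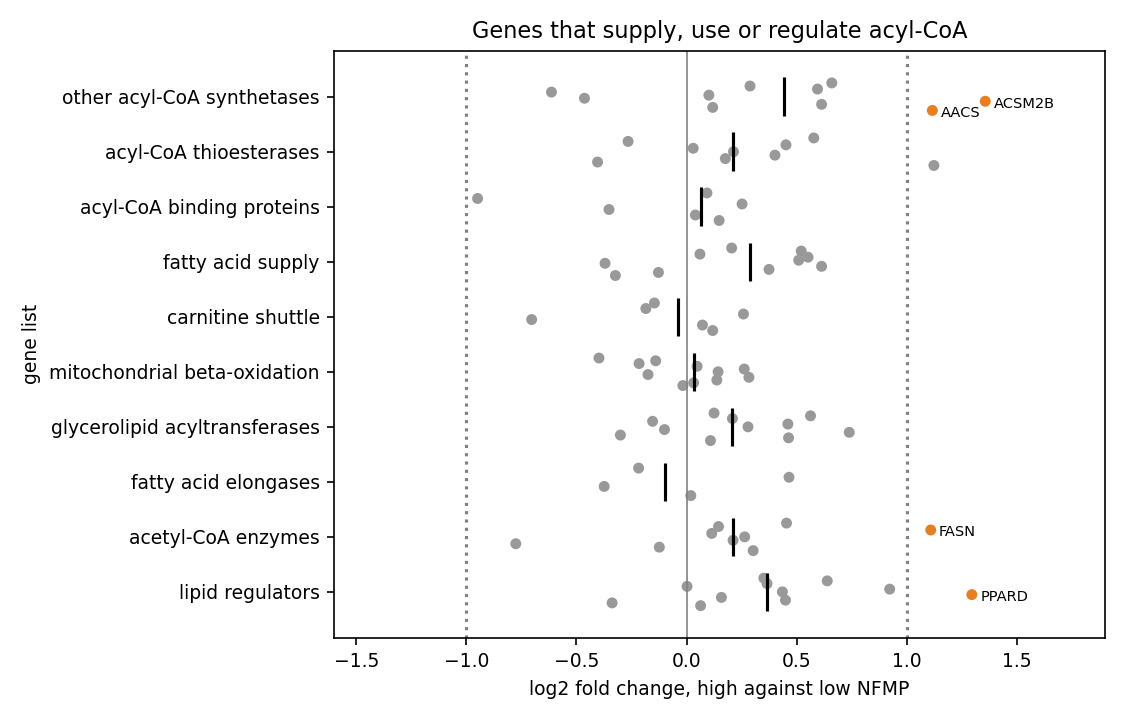
Each point is the log2 fold change of high against low NFMP of a tested gene of the 10 lists, with black bars at the list medians and dotted lines at a fold change of 2. The 4 orange, labelled points (PPARD, FASN, AACS and ACSM2B) passed the p and fold change threshold, and the list medians lie between -0.10 and 0.44.

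Among the other acyl-CoA synthetases, 2 of 10 tested genes passed the threshold, as higher, against 2.53% of all tested rows. Both, AACS and ACSM2B, had been named by the study from these same libraries, so this count is a description. AACS, which activates acetoacetate in the cytosol, gave 57, 41 and 51 reads with high NFMP and 35, 22 and 17 with low NFMP (log2 fold change 1.12, adjusted p = 0.279 by edgeR). ACSM2B, a mitochondrial medium-chain synthetase, gave 18, 12 and 23 against 11, 6 and 5 reads (log2 fold change 1.36, adjusted p = 0.373 by edgeR). For both genes the groups did not overlap, with high NFMP above low NFMP, as for 7.97% of all tested rows, but AACS fell to 0.97, below the fold change limit, without steer 10-16, and ACSM2B lost the p limit without steer 3-8, 10-9, 3-3 or 10-16. ACSM2B reached 10 reads in all 3 high-NFMP libraries and in 1 low-NFMP library, so it too entered the test through the group where it was high, and it was not tested when at least 10 counts were required in every library. Related ACSM genes can share reads where multiple alignments are counted. The most abundant genes of this list were ACSS3, a mitochondrial short-chain synthetase, with 340.6 ± 37.9 against 521.5 ± 116.7 normalized counts (log2 fold change -0.61, adjusted p = 0.266 by edgeR), and SLC27A1, a fatty acid transport protein with synthetase activity, with 442.3 ± 92.7 against 292.7 ± 76.5 (0.60, adjusted p = 0.343 by edgeR). For ACSS3 and ACSM4 (log2 fold change -0.46, adjusted p = 0.491 by edgeR) the groups did not overlap, with high NFMP below low NFMP. This held for 9.16% of all tested rows.

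The other synthetases were fewer in counts than the members together. Their summed normalized counts lay between 1324 and 1678 in the high-NFMP steers and between 1327 and 1407 in the low-NFMP steers, which is below ACSL3 alone.

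The transcription regulators of fatty acid genes held 1 gene past the threshold, as higher, among 11 tested, against 2.53% of all tested rows, so this share rests on a single gene. PPARD, a nuclear receptor for fatty acids that drives oxidation genes in muscle, gave 866, 680 and 936 reads with high NFMP and 446, 253 and 383 with low NFMP (log2 fold change 1.30, adjusted p = 0.017 by edgeR). The study had named PPARD from these same libraries, so its place in the list is not independent of this difference. In the study's qPCR, which included further steers, PPARD was higher with high NFMP but without statistical significance. In the libraries, the adjusted p of PPARD by edgeR was 0.0881 without steer 3-8, 0.0524 without steer 10-9 and 0.106 without steer 3-3, and it was 0.171 by limma, with a log2 fold change between 1.07 and 1.37 in these fits. PPARGC1A, a coactivator of such receptors and the most abundant gene of the list, gave 2812, 4608 and 4046 against 2978, 1870 and 1747 reads (log2 fold change 0.92, adjusted p = 0.145 by edgeR). Steers 3-8 and 3-1 were level, at 2850 normalized counts each. Without steer 3-8 or steer 3-1, and with age as a term, PPARGC1A passed the threshold, at 1.12, 1.20 and 1.36. Over the alternatives the adjusted p of PPARGC1A ranged from 0.0294 by DESeq2 to 0.417 by edgeR without steer 3-3. ACSL1, a known target of this receptor family in other tissues, had its own log2 fold change of -0.22 in the same steers.

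Among 9 tested enzymes that make or use acetyl-CoA, 1 passed the threshold, as higher, against 2.53% of all tested rows, so this share rests on a single gene. The gene was FASN, the fatty acid synthase. It gave 1359, 1076 and 607 reads with high NFMP and 383, 471 and 666 with low NFMP, so steers 10-9 and 10-16 overlapped (log2 fold change 1.11, adjusted p = 0.178 by edgeR). It fell below the fold change limit without steer 3-8 (0.87), the steer with the highest adipocyte marker counts, without steer 3-1 (0.93) and with age as a term (0.71). Over the alternatives the adjusted p of FASN ranged from 0.0188 by DESeq2 to 0.657 by edgeR with age as a term. All 7 adipocyte markers were higher in the high-NFMP group by sign, with a median log2 fold change of 0.69 and 0 past the threshold by edgeR, and their part in these results was not tested. The most abundant genes of the list were ACACB, the acetyl-CoA carboxylase of mitochondria (log2 fold change -0.12), and citrate synthase, CS (0.11).

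With all 6 steers, none of the tested genes in the remaining 7 lists passed the threshold by edgeR, DESeq2 or limma. These were 9 rows of thioesterases, which split acyl-CoA (2 most abundant, ACOT8 at a log2 fold change of 0.45 and ACOT7 at 0.03), 6 acyl-CoA binding proteins (DBI 0.09 and ACBD3 0.15) and 4 elongases (ELOVL7 -0.22 and ELOVL1 0.02). They were also 10 genes of fatty acid supply (CD36 -0.13 and FABP3 0.37), 6 of the carnitine shuttle (CRAT 0.26 and SLC25A20 -0.15), 11 of mitochondrial beta-oxidation (ACADVL 0.28 and HADHA -0.14) and 11 glycerolipid acyltransferases (AGPAT5 -0.10 and DGAT1 0.28). An unadjusted p below 0.05 by edgeR was reached by 3 of them, 2 in fatty acid supply and 1 in the carnitine shuttle, against 11.5% of all tested rows. The median log2 fold changes were 0.21 for the thioesterases, 0.07 for the binding proteins, -0.10 for the elongases and 0.29 for fatty acid supply. They were -0.04 for the carnitine shuttle, 0.03 for beta-oxidation and 0.21 for the acyltransferases, against 0.02 over all tested rows. CPT2 of the carnitine shuttle was at -0.70.

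Markers of the other cell types in muscle were measured in the same fit, and 0 of them passed the threshold by edgeR in any list, where 6 of the 38 tested had an unadjusted p below 0.05, against 11.5% of all tested rows. Limma also passed 0, and DESeq2 passed 1, THRSP, an adipocyte marker that was higher with high NFMP. By edgeR up to 3 markers passed under other settings. These were the adipocyte markers CIDEC, PLIN1 and THRSP without steer 10-9, CIDEC and THRSP with the label number as a term, and CIDEC without steer 10-8 or 3-1, all higher with high NFMP. The macrophage marker C1QA passed as higher without steer 3-3, and the macrophage marker CD163 passed as lower without steer 3-8. The median log2 fold change was 0.35 for 6 fibro-adipogenic markers, -0.01 for 5 endothelial markers, 0.26 for 5 macrophage markers, 0.14 for the 3 tested of 5 Schwann cell markers, -0.07 for 6 slow fibre markers and 0.06 for 6 fast fibre markers. An unadjusted p below 0.05 was found for 3 of the 7 adipocyte markers, and for 1 each of the fibro-adipogenic, macrophage and slow fibre markers by edgeR. The adipocyte markers ADIPOQ (log2 fold change 0.63), CIDEC (0.89) and CIDEA (0.69) and the macrophage marker C1QA (0.73) were above 0, and the fibro-adipogenic marker PDGFRA (-0.51) and the slow fibre marker MYL3 (-0.78) were below 0. Their adjusted p-values by edgeR lay between 0.145 and 0.408.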

How the data were processed

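RNA sequencing counts of LT muscle from 6 steers were analysed, with groups taken from the sample labels. The authors deposited raw read counts per gene symbol, 1 library per steer. Libraries were made with an oligo-dT 3′ mRNA kit. The labels name Bowtie2 and bedtools, and the methods name Tophat2 with HTSeq in one place and Bowtie2, counting unique and multiple alignments, elsewhere. Which of them made the counts, and the strand setting, are not given in the sources used here. A quantile normalization, named in the methods, is not in the deposited counts. The 176 extra rows of repeated symbols were kept as separate rows.

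Tests ran in edgeR 4.0.16 (R 4.3.3) with its default filter (minimum count 10, minimum total 15), TMM factors (0.915 to 1.083), robust dispersions and the quasi-likelihood test. The filter kept at least 99.8% of the counts of a library. The biological coefficient of variation was 25.1%. Intervals of fold changes came from the fit. Reads carry no molecular identifiers, so exact intervals cover counting error only. Nothing says that libraries were repeated per steer, so p-values measure the spread between single steers.

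The members and lists were chosen with earlier results of these data known. The named genes were all members, in each list the genes past the threshold (at most 5) and the 2 most abundant, and the 3 genes most like the most abundant member, 1 of which is not reported here. Alternatives changed the filter (none, or 10 counts or more in all libraries), the scaling (RLE, or library totals), the tool (DESeq2 1.42.0, or limma 3.58.1 on quantile-normalized log2(count + 1) values) and the model (a term for age or for the leading number of the steer label), or left out 1 steer. Division by coding length was not run, and transcript, protein and promoter sequences were not used here.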

Additional observations from a re-analysis of the deposited data

How the results depend on the processing

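The number of members past the threshold was 1 in 11 of the 14 alternatives, 0 when at least 10 counts were required in every library, which removes ACSBG2, and between 1 and 2 with a steer left out, ACSS1 being the second. Over all rows 586 passed, 969 without a filter and 364 with at least 10 counts in every library. With library totals alone 315 were higher and 248 lower, with age as a term 373 and 278, with quantile normalization and limma 338 and 264, and without steer 3-8 366 and 378, against 381 and 205. At an adjusted p below 0.05 these counts were 103 by edgeR, 291 by DESeq2 and 0 by limma, and between 28 and 82 with a steer left out. Between 3 and 5 of the pathway genes passed with a steer left out, of which 1 was lower without steer 3-8 (ACAT1) and 1 without steer 10-9 (ACBD7). In that last fit ACBD7 reached 10 reads only in the low-NFMP group. The share of ACSL1 stayed between 47.9% and 51.0%, and the difference in the log2 ratio of ACSS1 to ACSS2 between 0.61 and 1.31.

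For 37 genes, 477 of 516 fold changes under an alternative kept their direction and their side of the threshold, and 8 lost it, 6 gained it and 25 turned their sign, all 25 in genes that did not pass. ACSL4 was at -0.00032 without a filter, at -0.054 with library totals alone, at -0.046 with the label number as a term, and between -0.019 and 0.096 with a steer left out. ACSL3 was at -0.024 with library totals alone, and ACSL5 lay between -0.18 and 0.45 with a steer left out. With library totals alone ACOT7 was at -0.037 and ELOVL1 at -0.050. With age as a term ACACB was at 0.038, ACOT7 at -0.074, AGPAT5 at 0.044 and HADHA at 0.053. With the label number as a term CS was at -0.0085 and ELOVL1 at -0.036, and with limma ELOVL1 was at -0.0059. With a steer left out ACACB lay between -0.46 and 0.19, ACOT7 between -0.086 and 0.11, CRAT between -0.071 and 0.44, ELOVL7 between -0.34 and 0.012, ELOVL1 between -0.10 and 0.13, CD36 between -0.27 and 0.039 and AGPAT5 between -0.23 and 0.054. The cause of these changes was not tested. No paired analysis was possible because each steer gave 1 library and the labels number no replicates. The leading number of the steer label occurs in both groups, has no stated meaning and was used only as a term. Counts per coding length were not computed here. With 3 steers a group, genes of few counts such as ACSBG1 and ACSL6 could not be resolved.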

Other observations

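Of the 87 tested rows of the pathway lists, 13 had an unadjusted p below 0.05 by edgeR, against 11.5% of all tested rows. Beside the 4 past the threshold these were 9 genes with a fold change under 2, none with an adjusted p below 0.05 by edgeR. ACSS3, SLC27A1 and PPARGC1A are described above. The other 6 were chosen after their values were seen. CPT2, the inner-membrane carnitine palmitoyltransferase, gave 97, 101 and 108 reads with high NFMP and 228, 138 and 172 with low NFMP, and its log2 fold change was -0.70 (adjusted p = 0.303 by edgeR). It was -0.34 with age as a term (unadjusted p = 0.301 by edgeR) and -0.51 without steer 3-1 (unadjusted p = 0.110 by edgeR). ACAT1, the mitochondrial acetoacetyl-CoA thiolase, had 436.6 ± 155.1 against 747.3 ± 143.7 normalized counts (SD, n = 3 each) and a log2 fold change of -0.78 (adjusted p = 0.257), which was -1.02 without steer 3-8, past the fold change limit, and -0.50 without steer 10-9. The groups did not overlap for either gene, with high NFMP below low NFMP, as for 9.16% of all tested rows.

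The lipases LIPE and MGLL, which split diglycerides and monoglycerides in fat, were higher by sign in the high-NFMP group, with log2 fold changes of 0.55 and 0.52 (adjusted p = 0.316 and 0.341 by edgeR). LIPE was at 0.32 without steer 3-8, the steer with the most adipocyte marker counts, and MGLL at 0.34 without steer 10-9, with unadjusted p-values of 0.0982 and 0.104 by edgeR. The 7 adipocyte markers had a median log2 fold change of 0.69, and their part in these values was not tested. The regulators SREBF1, which drives lipogenic genes, and NR1H3, a sterol receptor, were at 0.64 and 0.45 (adjusted p = 0.354 and 0.407 by edgeR). SREBF1 was at 0.33 without steer 10-8 (unadjusted p = 0.181 by edgeR). For LIPE, MGLL and NR1H3 the groups did not overlap, with high NFMP above low NFMP, as for 7.97% of all tested rows.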
